A study of Mus musculus with 17 samples.

Results

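The complex I assembly factors examined here are 10 nuclear genes, Ndufaf1, Ndufaf2, Ndufaf3, Ndufaf4, Ndufaf7, Ecsit, Acad9, Timmdc1, Tmem126b and Nubpl, among the 27179 genes of each deposited count table. They were taken by name: every table row whose NCBI gene number maps to 1 of these symbols was used, and each symbol matched exactly 1 row. No measured value entered this matching, but the symbols were chosen with earlier results of these data known. RNA of preparations labelled as macrophages from the mouse colon was sequenced in 17 libraries, with 1 mouse number per library in the titles. All mice were C57BL/6(h-2b) and 8 weeks old, and either wild type (WT) or deficient in MCJ (KO), the mitochondrial protein that Dnajc15 encodes. The allele behind the deficiency is not given in the sources used here. The 6 groups were WT NN (3 libraries) and KO NN (2), for which the titles name no treatment. WT NP (3) and KO NP (3) had dextran sulfate sodium (DSS) for 6 days, and WT PP (3) and KO PP (3) had a broad spectrum antibiotic for 7 days and then DSS for 6 days. No group had the antibiotic alone, so the PP minus NN comparison holds both agents. DSS injures the colon epithelium and is used to induce colitis in mice. Libraries are named below by group and title number.

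Complex I, the NADH dehydrogenase of the respiratory chain, is built in the inner mitochondrial membrane from separately made modules, and assembly factors stabilise these modules without staying in the finished enzyme. Ndufaf1, Ecsit, Acad9 and Tmem126b form the mitochondrial complex I assembly (MCIA) complex, which with Timmdc1 serves the membrane arm. Ndufaf3, Ndufaf4 and Ndufaf7 act on the module that binds ubiquinone, Ndufaf2 acts late, when the NADH-oxidising module is joined, and Nubpl delivers iron-sulfur clusters. MCJ binds complex I and restrains its activity.

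The libraries held between 29194744 and 37083344 counts. Dnajc15 had 359 to 1534 counts in the WT libraries and 21 to 121 in the KO libraries, so the 2 ranges did not overlap. Defining markers of macrophages were low in the NN libraries: the summed level of 13 macrophage markers was 29.2 to 47.1 CPM (counts scaled to library size with TMM factors) there, with Cd163 at 0 in all of them, against 20730 to 28074 CPM for 12 colonocyte markers. In the PP libraries macrophage markers reached 628 to 5333 CPM and colonocyte markers stood at 10049 to 15537 CPM. The libraries are therefore called preparations here. The TMM factors were lowest in WT NN, at 0.699 to 0.837, against 0.954 to 1.24 in WT NP and 1.16 to 1.27 in KO NN. Mitochondrially encoded genes held 38.9 to 50.4% of the counts in WT NN and 23.1 to 28.35% in KO NN. Differences in CPM from WT NN therefore depend on this scaling. WT NN library 2 stood apart, with 10075 genes at 10 or more counts against 12383 to 14790 in the other libraries. WT PP library 11 had 628 CPM of macrophage markers against 4708 and 4896 in the other 2 of its group. Several results that rest on these libraries, though not all, are given with and without them.

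All 10 genes passed the filter on low counts in every fit, and their lowest count in any library was 59. Per kilobase of exon, mean levels over the 17 libraries put Ndufaf2 highest at 21.3 CPM per kilobase, followed by Ndufaf3 at 13.6 and Timmdc1 at 12.4. Ndufaf1 (7.98), Ecsit (6.67), Ndufaf7 (6.42), Ndufaf4 (6.28) and Acad9 (5.39) lay close together, and neighbours in this run differed by less than the SD over libraries of either. Tmem126b at 3.04 and Nubpl at 2.17 CPM per kilobase were lowest. Among 16006 genes with an exon length these levels stood between the percentiles 50.6 (Nubpl) and 86.4 (Ndufaf2). Exons of Ndufaf1, Ndufaf2, Ndufaf4, Ndufaf7, Timmdc1, Tmem126b and Nubpl overlapped no other annotated gene. Of the exonic bases of Acad9 14.2% were shared with Gm43079, of Ecsit 11.4% with the antisense gene Gm16845, and of Ndufaf3 3.23% with Impdh2. Gm43079 lies on the same strand as Acad9, so no strand setting would separate those reads. Gm16845 and Impdh2 lie on the strand opposite to their partners. The strand setting of the authors' counting is not given in the sources used here, so reads from the Ecsit and Ndufaf3 stretches cannot be assigned to 1 of the partners either.

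**Figure D1:**
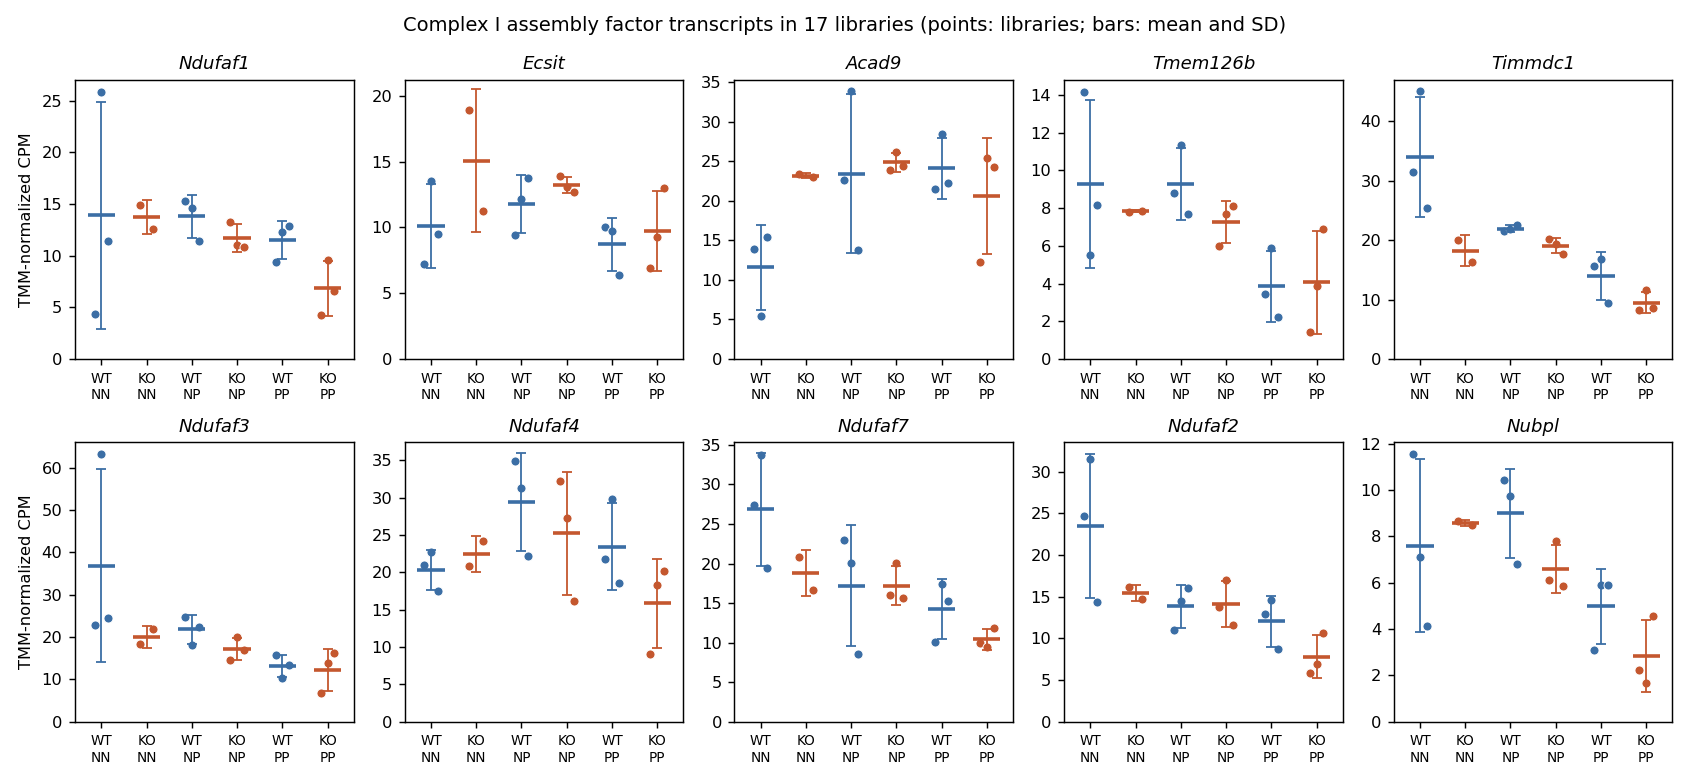
TMM-normalized CPM (y axis, linear, from 0) of each assembly factor in the 6 groups (x axis), with points for libraries and bars for mean and SD. Timmdc1 stands at 25.4 to 45.1 CPM in WT NN and 9.37 to 16.9 CPM in WT PP. In KO mice it stands at 16.3 to 20.01 CPM in NN and 8.22 to 11.6 CPM in PP. Acad9 has its lowest group mean in WT NN, at 5.40 to 15.5 CPM.

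The bases before the start site are shown for 3 genes that the results turn on, Timmdc1 and Ndufaf3, which changed, and Ndufaf4, a partner of Ndufaf3 that did not pass the test. RefSeq promoter sequences (build GRCm38.p6) were found for 9 of the 10 genes, and the searched motifs are in capitals, on either strand. Timmdc1 (chr16:38522779-38522913, minus strand; the 115 bases next to the start lie in the RefSeq gene span and are not printed), Ndufaf3 (chr9:108567437-108567686, minus strand) and Ndufaf4 (chr4:24897833-24898082, plus strand) read:
Timmdc1: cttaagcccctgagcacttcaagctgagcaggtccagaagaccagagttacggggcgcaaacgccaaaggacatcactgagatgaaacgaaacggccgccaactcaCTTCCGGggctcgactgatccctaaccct
Ndufaf3: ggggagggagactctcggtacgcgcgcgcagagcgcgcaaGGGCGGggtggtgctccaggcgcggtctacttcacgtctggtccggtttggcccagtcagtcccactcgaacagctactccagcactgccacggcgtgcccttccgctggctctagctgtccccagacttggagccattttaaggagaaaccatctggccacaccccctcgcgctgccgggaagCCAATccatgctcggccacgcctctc
Ndufaf4: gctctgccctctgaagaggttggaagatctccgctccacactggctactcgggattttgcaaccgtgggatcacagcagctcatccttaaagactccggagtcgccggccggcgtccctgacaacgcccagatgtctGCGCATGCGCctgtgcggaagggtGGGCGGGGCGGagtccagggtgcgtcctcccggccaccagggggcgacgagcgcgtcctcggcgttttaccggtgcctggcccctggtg
The capitals in Timmdc1 mark an ETS site of the GABP type (CCGGAAG), in Ndufaf3 a GC box (GGGCGG) and a CCAAT box, and in Ndufaf4 the overlapping NRF1 cores (GCATGCGC, read on both strands) and GC boxes, also overlapping. Over the 250 bases before the start, the ETS site was found in 2 of 9 members (Ndufaf1 and Timmdc1, the latter with 4 matches, some overlapping) and in 7.05% of all 27025 promoters. The GC box was found in 7 of 9 members and 32.9% of all promoters, and CCAAT in 6 of 9 and 34.5%. These member counts include GC boxes of Ecsit, Ndufaf2 and Timmdc1 and the CCAAT box of Ecsit that lie inside the RefSeq gene span. The NRF1 core occurred in Ndufaf4 alone of the 9 (2.32% of all), the CRE (TGACGTCA) in Nubpl alone (1.62%), and the YY1 site (AAGATGGCG, 0.607% of all) and the estrogen-related receptor site (TCAAGGTCA, 0.366%) in none. The 9 member promoters had a median GC content of 60% and 20 CpG dinucleotides, against 52% and 6 over all promoters. A match is a description of letters in this window only.

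The only calls among the assembly factors, in all 13 comparisons fitted with edgeR, came with antibiotic and DSS together (PP minus NN). In wild-type mice 2 of the 10 genes fell, Timmdc1 and Ndufaf3, and none rose at an adjusted p under 0.05, where 20.1% of the 16958 genes tested were called and 7.31% were called lower. Both calls were lost when the fit held the WT NN and WT PP libraries only (edgeR adjusted p = 0.053 for Timmdc1 and 0.068 for Ndufaf3). The median log2 fold change of the 10 genes was -0.76, and that of all genes tested was 0.27. In KO mice all 10 log2 fold changes were negative, with a median of -0.89 against 0.06 for all genes, but edgeR called none of the 10 (4 had an unadjusted p under 0.05, and DESeq2 called 1), where 10.3% of all genes were called and 3.77% were called lower. In bulk RNA, fewer cells of a type and less RNA per cell cannot be told apart, and both marker sums named above moved along the same comparison; their part in the result was not tested.

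Timmdc1, a membrane protein that holds the early membrane-arm intermediate, had 31.4, 45.1 and 25.4 CPM in WT NN libraries 1, 2 and 3 and 15.6, 16.9 and 9.37 CPM in WT PP libraries 10, 11 and 12. The 2 groups did not overlap. The fitted change was -1.28 on the log2 scale (SE 0.29), with an adjusted p of 0.0054 by edgeR's quasi-likelihood test. Without WT NN library 2 it was -1.03 (edgeR adjusted p = 0.023), and without that library and WT PP library 11 together it was -1.18 (edgeR adjusted p = 0.017). In KO mice Timmdc1 had 20.01 and 16.3 CPM in the NN libraries and 8.22, 11.6 and 8.65 CPM in the PP libraries, again without overlap. That change was -0.94 (SE 0.33), with an edgeR adjusted p of 0.075.

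Ndufaf3, which works with Ndufaf4 on the ubiquinone-binding module, had 22.8, 63.1 and 24.5 CPM in WT NN and 15.6, 10.3 and 13.5 CPM in WT PP. The groups did not overlap, and library 2 alone stood far above the others. The fitted change was -1.48 (SE 0.39; edgeR adjusted p = 0.013), and without WT NN library 2 it was -0.85 (edgeR adjusted p = 0.099), a loss of the call. Without that library and WT PP library 11 together it was -0.70 (edgeR adjusted p = 0.21). Ndufaf4, its partner, had 20.9, 22.7 and 17.4 CPM in WT NN and 21.8, 29.9 and 18.6 CPM in WT PP, which overlap, and its change of 0.20 (SE 0.34) did not pass the test. Within each library the ratio of Ndufaf3 to Ndufaf4 counts, which no scaling moves, was 1.09 to 2.79 in WT NN and 0.346 to 0.725 in WT PP. The value of 2.79 was that of WT NN library 2, and the others in that group were 1.09 and 1.41. In KO mice the same ratio was 0.877 and 0.907 in NN and 0.743 to 0.806 in PP. Ndufaf7, a mitochondrial methyltransferase, had 27.4, 33.8 and 19.5 CPM in WT NN and 10.1, 17.4 and 15.2 CPM in WT PP. Its change of -0.91 (SE 0.35; edgeR adjusted p = 0.080) missed the threshold although the groups did not overlap.

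Acad9, an acyl-CoA dehydrogenase with a second role in the MCIA complex, went the other way in wild-type mice. It had 13.9, 5.40 and 15.5 CPM in WT NN and 21.5, 28.5 and 22.3 CPM in WT PP, without overlap, a fitted change of 1.06 (SE 0.39; edgeR adjusted p = 0.068). Without WT NN library 2, the lowest, the change was 0.71 (edgeR adjusted p = 0.20), and without WT PP library 11 as well it was 0.58 (edgeR adjusted p = 0.33). In KO mice it had 23.4 and 22.96 CPM in NN and 12.2, 25.4 and 24.3 CPM in PP, with a change of -0.17 (SE 0.44), and the difference between the genotypes' changes was -1.22 (SE 0.58; edgeR adjusted p = 0.61). Without those 2 libraries that difference was -0.74 (edgeR adjusted p = 0.79). The ratio of Timmdc1 to Acad9 counts within a library was 1.64 to 8.35 in WT NN (1.64 and 2.27 without library 2) and 0.420 to 0.727 in WT PP. It was 0.711 and 0.856 in KO NN and 0.356 to 0.673 in KO PP, so neither pair of groups overlapped.

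The other MCIA members gave wider spreads. Tmem126b, a membrane protein of the complex, had 14.2, 5.50 and 8.18 CPM in WT NN and 3.45, 5.91 and 2.21 CPM in WT PP, which overlap through WT NN library 2. Its change was -1.27 (SE 0.55; edgeR adjusted p = 0.12), and without WT NN library 2 and WT PP library 11 it was -1.98 (edgeR adjusted p = 0.028). Ndufaf1, the chaperone at the core of the complex, had 4.38, 25.9 and 11.4 CPM in WT NN, nearly the full range of the series within 1 group, and 9.41, 12.3 and 12.9 CPM in WT PP. In KO mice it had 14.9 and 12.6 CPM in NN and 4.30, 9.62 and 6.58 CPM in PP, which do not overlap, with a change of -1.01 (SE 0.53; edgeR adjusted p = 0.26). Ecsit, which also serves Toll-like receptor signalling, had 7.25, 13.5 and 9.52 CPM in WT NN and 10.0, 9.73 and 6.41 CPM in WT PP, and changed by less than its error there (-0.21, SE 0.37). Of 10 Toll-like receptor pathway partners of Ecsit, 4 rose in the same comparison, where 12.8% of all genes were called higher, among them Tlr2 by 3.88 (SE 0.41), Tlr4 by 1.88 (SE 0.39) and the adaptor Traf6 by 1.70 (SE 0.45).

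Ndufaf2, a relative of the subunit Ndufa12 that takes part in the last steps, had 24.7, 31.5 and 14.4 CPM in WT NN and 12.96, 14.6 and 8.68 CPM in WT PP, which overlap narrowly. The change was -0.96 (SE 0.35; edgeR adjusted p = 0.066). In KO mice it had 16.1 and 14.8 CPM in NN and 5.80, 6.96 and 10.7 CPM in PP, without overlap (-0.98, SE 0.40; edgeR adjusted p = 0.13). Nubpl had the largest fitted change of the 10 genes in KO mice: 8.65 and 8.48 CPM in NN and 2.25, 1.68 and 4.58 CPM in PP, a change of -1.60 (SE 0.56; edgeR adjusted p = 0.075). Without KO PP library 24 it was -2.12 and passed (edgeR adjusted p = 0.025), the only 1 of the 5 fits that left out a library in which it did; without KO NN library 13 it was -1.58 (edgeR adjusted p = 0.32). In wild-type mice Nubpl had 11.5, 7.10 and 4.13 CPM in NN and 3.12, 5.91 and 5.896 CPM in PP, which overlap (-0.61, SE 0.50).

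Counted by overlap alone, 8 of the 10 genes were lower in every KO PP library than in both KO NN libraries, all but Ecsit and Acad9, where 21.8% of all genes were; the small KO NN group makes such separation common. In wild-type mice 3 genes were lower without overlap (Ndufaf3, Ndufaf7 and Timmdc1; 12.8% of all genes) and Acad9 was higher (20.7% of all genes). KO PP library 22 had the lowest sum of the 10 genes in the series, 66.8 CPM, against 109.9 and 123 CPM in KO PP libraries 23 and 24. Without it the KO changes of Timmdc1 and Nubpl were -0.89 and -1.48, and that of Ndufaf4 was -0.27 in place of -0.51. The KO PP libraries also carried 752 to 11577 CPM of red blood cell markers, against 3.86 and 4.92 CPM in KO NN, and their part in the result was not tested.

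**Figure D2:**
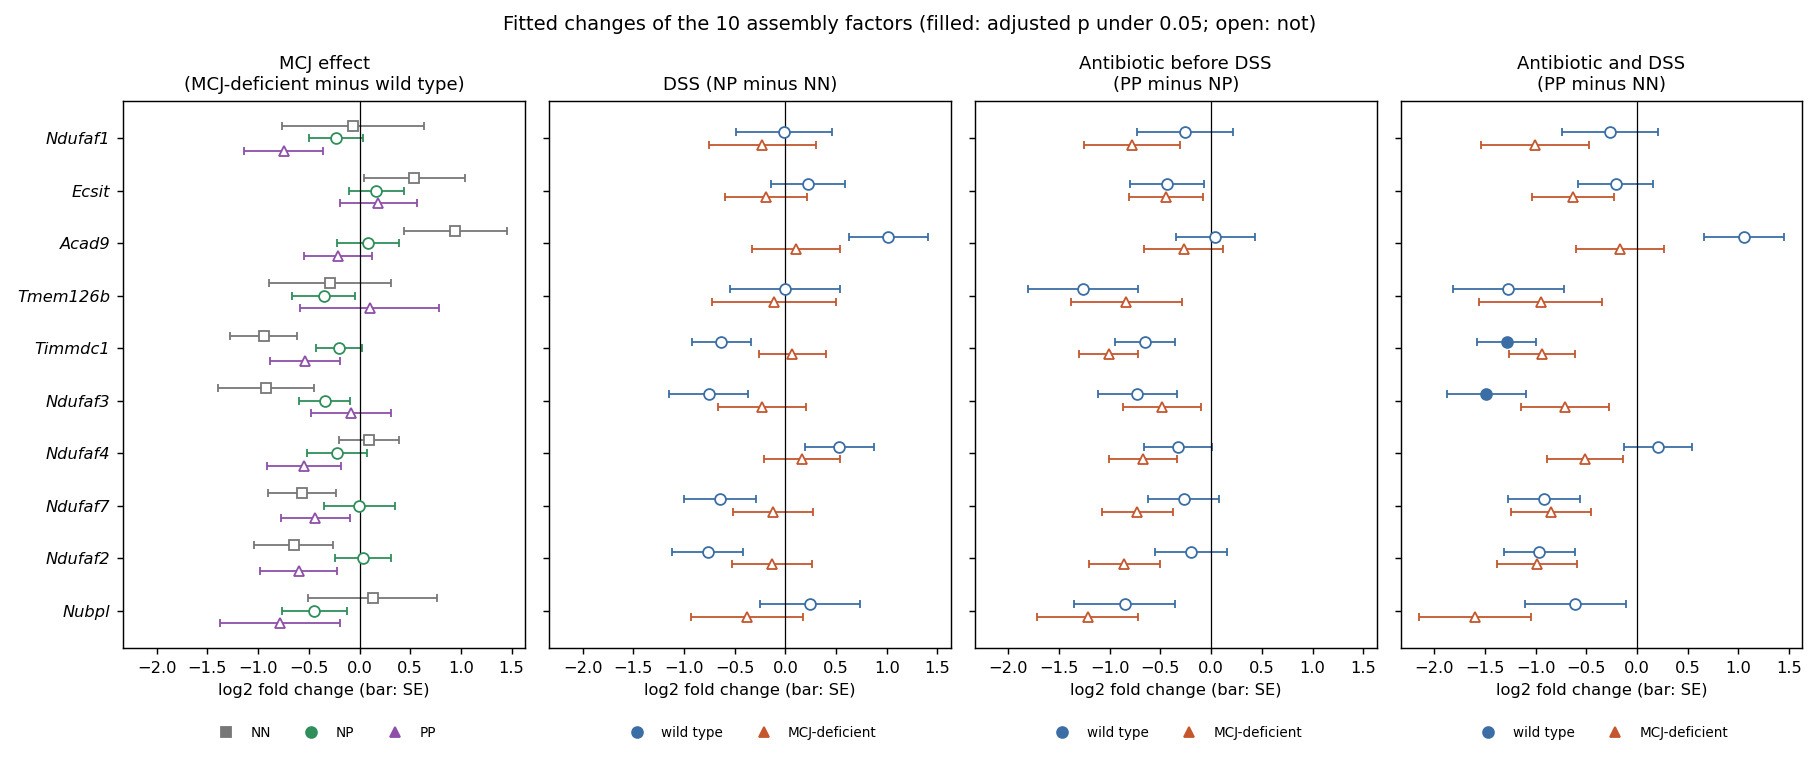
Fitted log2 fold changes (x axis) of the 10 assembly factors (y axis) with SE bars, in 4 panels: KO minus WT by condition, NP minus NN, PP minus NP and PP minus NN by genotype. Filled symbols, Timmdc1 at -1.28 and Ndufaf3 at -1.48 in wild-type PP minus NN, passed an adjusted p of 0.05, and open symbols did not.

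The step from DSS alone to antibiotic before DSS (PP minus NP) carried negative values for nearly every member. In KO mice all 10 values were negative (median -0.75, all genes 0.01). In wild-type mice 9 of 10 were (median -0.38, all genes 0.06), with Acad9 at 0.04 (SE 0.39) the exception. Without WT PP library 11 all 10 were negative in wild-type mice (median -0.53, all genes 0.03). In both genotypes edgeR called 0 of 10, where 1.73% of all genes were called in KO and 4.41% in wild-type mice. At an unadjusted p under 0.05 there were 3 genes in KO (Timmdc1, Nubpl and Ndufaf2) and 2 in wild-type mice (Tmem126b and Timmdc1), and DESeq2 called 1 in KO and 0 in wild-type mice. Timmdc1 had 20.2, 19.3 and 17.7 CPM in KO NP libraries 19, 20 and 21 against the 8.22 to 11.6 CPM of KO PP, a change of -1.01 (SE 0.29; edgeR adjusted p = 0.091). In wild-type mice it had 21.5, 21.8 and 22.5 CPM in NP, the tightest group of any member with 3 libraries, against 9.37 to 16.9 CPM in PP, a change of -0.65 (SE 0.29; edgeR adjusted p = 0.27). Without overlap, 5 genes were lower in KO (Ndufaf1, Ndufaf2, Ndufaf7, Timmdc1 and Nubpl; 10.5% of all genes) and 4 in wild-type mice (Ndufaf3, Timmdc1, Tmem126b and Nubpl; 10.8%). These comparisons share the PP libraries with PP minus NN, so the values stand side by side and are not separate evidence.

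With DSS alone (NP minus NN) no member passed the test. EdgeR called 0 of 10 in both genotypes, where 2.44% of all genes were called in wild-type and 2.08% in KO mice, and DESeq2 also called 0. The median was -0.01 in wild-type (all genes 0.14) and -0.13 in KO mice (all genes 0.02). In wild-type mice 3 genes had an unadjusted p under 0.05: Acad9 at 1.02 (SE 0.39), Ndufaf2 at -0.77 (SE 0.35) and Timmdc1 at -0.63 (SE 0.29). Without WT NN library 2 these were 0.69, -0.49 and -0.36, and none had an unadjusted p under 0.05. Ndufaf3 had -0.76 (SE 0.39) and Ndufaf7 -0.64 (SE 0.35), and without that library -0.11 and -0.43. In KO mice no member had an unadjusted p under 0.05, and the values ran from -0.38 (Nubpl) to 0.16 (Ndufaf4). Acad9 had 22.7, 33.9 and 13.8 CPM in WT NP, which overlaps WT NN through library 9. Timmdc1 alone was lower without overlap in wild-type NP (6.22% of all genes), and in KO NP Acad9 was higher (19% of all genes) and Nubpl lower (17.1%). The separation of Timmdc1 holds for scaled CPM only: its raw counts were 664 to 927 in WT NN and 667 to 986 in WT NP, which overlap. Ndufaf4 had 34.9, 31.3 and 22.2 CPM in WT NP, its highest group mean (29.5 ± 6.6 CPM, SD, n = 3), but the change of 0.53 (SE 0.34) did not pass.

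The comparison of MCJ-deficient with wild-type mice asks whether the assembly factors are expressed differently when this inhibitor of complex I is missing. EdgeR called 0 of the 10 genes in NN, in NP and in PP, where 0%, 1% and 0% of all genes were called. Dnajc15 itself differed by -3.76 in NN (edgeR adjusted p = 0.33) and -4.15 in PP (edgeR adjusted p = 0.79), and was not called there. In NP it differed by -4.19 and was called (edgeR adjusted p = 9.96e-05). The lack of a call in NN or PP therefore does not show that a gene is unchanged. At an unadjusted p under 0.05 there was 1 member in NN (Timmdc1) and none in NP or PP, and DESeq2 called none in any of the 3, though in NN it gave an adjusted p for only 1 member. In NN, Timmdc1 was lower in both KO libraries (20.01 and 16.3 CPM) than in the 3 WT libraries (25.4 to 45.1 CPM), with a log2 difference of -0.95 (SE 0.33; edgeR adjusted p = 0.57). Its raw counts, 635 to 761 in KO NN and 664 to 927 in WT NN, overlap. Ndufaf3 was also lower without overlap in KO NN (18.2 and 21.9 CPM, difference -0.92, SE 0.47), and Acad9 higher (difference 0.95, SE 0.51). Without WT NN library 2 the differences were -0.70 for Timmdc1, -0.30 for Ndufaf3 and 0.60 for Acad9. Of all genes 8.82% were lower and 19.7% higher without overlap in that comparison. In NP the 10 differences lay between -0.45 (Nubpl) and 0.17 (Ecsit), and Timmdc1 was the single gene without overlap (6.47% of all genes lower), at 17.7 to 20.2 CPM in KO against 21.5 to 22.5 CPM in WT. In PP they lay between -0.79 (Nubpl) and 0.19 (Ecsit), 8 of 10 were negative, and every gene overlapped between the genotypes.

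Averaged over the 3 conditions, Timmdc1 had the smallest p of the 10 genes: it was lower in KO by a log2 difference of -0.55 (SE 0.18; edgeR adjusted p = 0.19), with negative differences in all 3 conditions. EdgeR called 0 of 10 (0.0059% of all genes were called; 1 member had an unadjusted p under 0.05), and DESeq2 called Timmdc1 (adjusted p = 0.031). The median of the 10 genes was -0.33 and that of all genes 0.08. Without WT NN library 2 and WT PP library 11 the median of the 10 was -0.16 and that of all genes 0.09, and Timmdc1 had -0.42 (edgeR adjusted p = 0.29). Ecsit (0.30, SE 0.22) and Acad9 (0.29, SE 0.23) had positive averages. The 3 tests of whether the MCJ difference changed between conditions called none of the 10 genes with edgeR or DESeq2, none had an unadjusted p under 0.05, and of all genes 0%, 0% and 0.0531% were called.

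The products that the assembly factors help to build were measured in the same libraries. In PP minus NN, 7.31% of all genes were called lower in wild-type and 3.77% in KO mice. In wild-type PP minus NN, 34 of 36 nuclear complex I subunit genes fell (median -1.32), with the smallest p-values for Ndufa1 (-1.95, SE 0.27), Ndufb8 (-1.57, SE 0.25) and Ndufb9 (-1.56, SE 0.25). Leaving out WT PP library 10 left 26 of them, and leaving out WT NN library 2 and WT PP library 11 together left 32. In KO mice 20 of 36 fell (median -1.04), among them Ndufc1 (-1.52, SE 0.31) and Ndufb2 (-1.45, SE 0.31). That count moved with single libraries: it was 11 without KO PP library 22, 12 without KO PP library 23, and 29 of 36 without KO PP library 24. Of all genes, 457, 329 and 773 were called lower in these fits, and 640 with all libraries. Leaving out a KO NN library leaves 1 in that group, so no count is given there. None of the 7 mitochondrially encoded subunits passed in either genotype with edgeR (DESeq2 called 0 in wild-type and 1 in KO mice), and their medians were -0.02 in wild-type and 0.56 in KO mice (1 gene in each had an unadjusted p under 0.05 by edgeR: mt-Nd4l at 0.83 and mt-Nd5 at 0.85). Of 11 other complex I assembly factors 4 fell in wild-type mice, among them Dmac2 (-1.28), Ndufaf6 (-1.67) and Tmem126a (-1.22), and 1 fell in KO mice, Ndufaf5 (-1.34). Of 30 tested assembly factors of complexes II to V 8 fell in wild-type mice, among them Cox14 (-1.36) and Surf1 (-1.02), and 3 fell in KO mice, Surf1, Cox17 and Uqcc3.

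**Figure D3:**
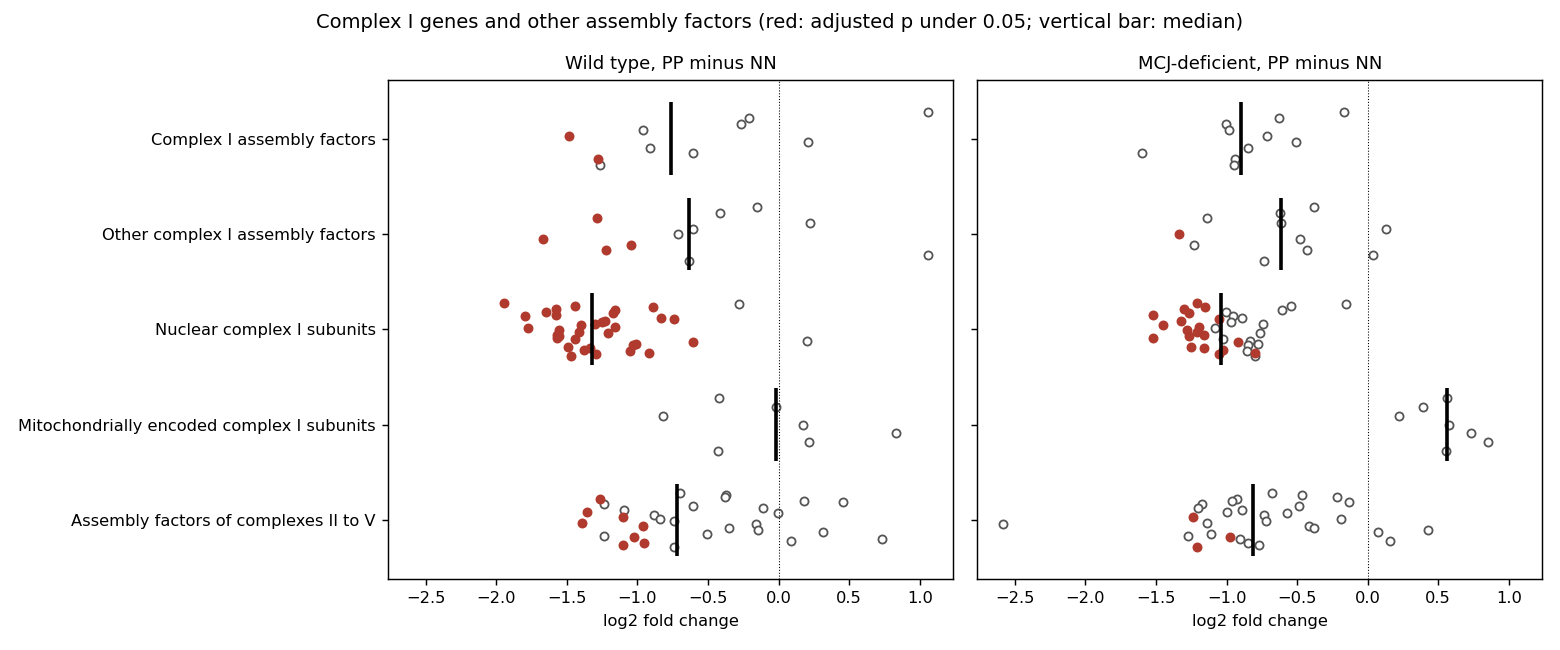
Log2 fold changes (x axis) of PP minus NN in wild-type (left) and KO mice (right) for 5 gene lists (y axis), 1 point per gene, red where the adjusted p was under 0.05, with a bar at the median. The nuclear subunits center at -1.32 and -1.04, and the 10 assembly factors at -0.76 and -0.89.

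Acad9 could be set beside its enzyme family in PP minus NN. There 7.31% of all genes were called lower and 12.8% higher in wild-type mice, and 3.77% lower in KO mice. Of 11 other acyl-CoA dehydrogenases 3 fell in wild-type PP minus NN: Acadvl (-0.98, SE 0.22), Gcdh (-1.10, SE 0.30) and Ivd (-1.17, SE 0.39), where Acad9 had 1.06. In KO mice Gcdh (-1.29), Acadvl (-0.95) and Acad8 (-1.21) fell, where Acad9 had -0.17. Of 10 regulators of mitochondrial biogenesis, Gabpb1 (1.59, SE 0.50) and Gabpa (1.25, SE 0.40), which encode the ETS factor GABP, rose in wild-type mice, and the nuclear receptor gene Esrra fell in wild-type (-1.03, SE 0.31) and in KO mice (-1.36, SE 0.35).

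The counts of the 10 assembly factors per 1000 counts of the 36 nuclear subunits gave a ratio within each library that no scaling moves. It was 25.3, 26.7 and 27.8 in WT NN, 31.5 and 34.0 in KO NN, 28.4, 35.4 and 42.5 in WT NP and 38.2, 41.2 and 43.5 in KO NP. It was 40.9, 42.2 and 47.5 in WT PP and 36.1, 37.5 and 47.0 in KO PP. In both genotypes the NP and the PP libraries were above the NN libraries without overlap. Relative to the subunits, the assembly factors thus held a higher share of counts in NP and in PP than in NN. In KO mice the mean was 41.0 in NP (SD 2.6, n = 3) and 40.2 in PP (SD 5.9, n = 3). The ratio weights each gene by its counts and has no test here.

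**Figure D4:**
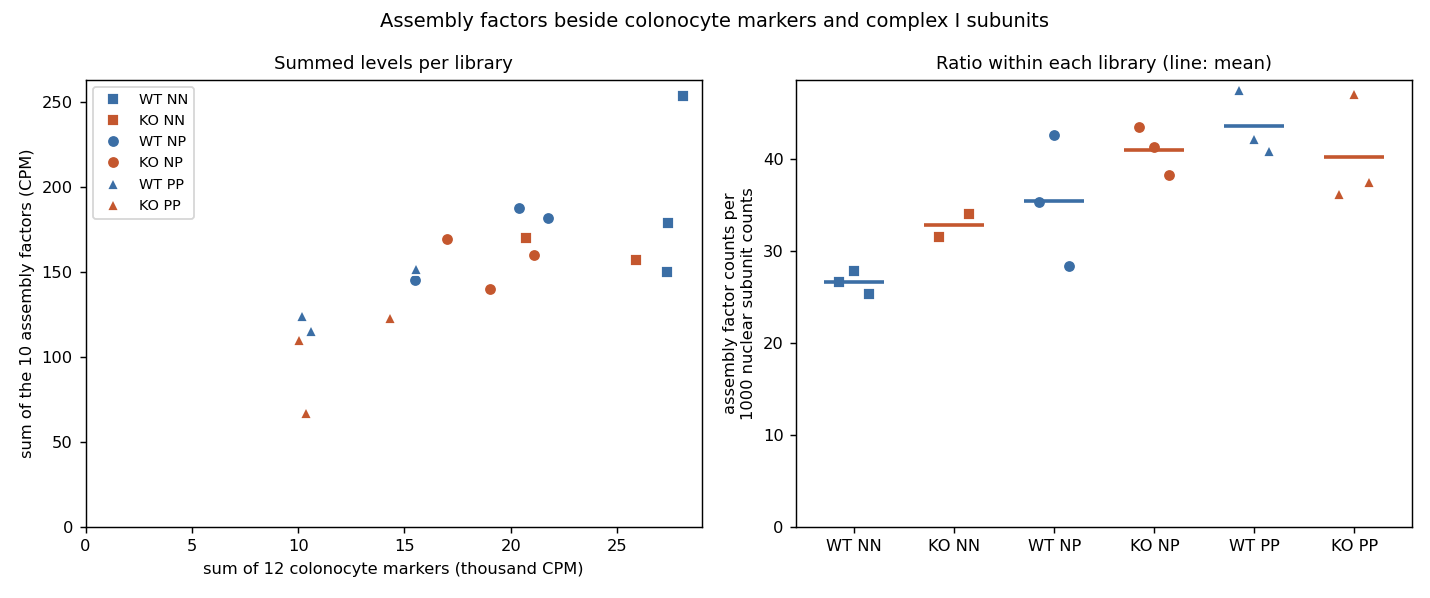
Left, the summed CPM of the 10 assembly factors (y axis) against the summed CPM of 12 colonocyte markers divided by 1000 (x axis), 1 point per library; right, assembly factor counts per 1000 nuclear subunit counts (y axis) by group, with the group mean as a line. Assembly factor sums run from 66.8 CPM (KO PP library 22) to 254 CPM (WT NN library 2), and the ratio is lowest in WT NN, at 25.3 to 27.8.

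Over the 17 libraries the assembly factors mostly varied together. Of the 45 pairs 40 had a positive Pearson correlation of log2 CPM, with a median of 0.46 and a range from -0.52 (Ndufaf3 with Acad9) to 0.88. After the group means were taken out, 35 of the 45 were positive, with a median of 0.33. Against the mean of the other 9, each gene had a correlation between 0.49 (Ecsit) and 0.77 (Ndufaf2), but Acad9 had -0.14. The mean standardised level of the 10 genes correlated at 0.79 with colonocyte markers, at -0.71 with macrophage markers and at -0.82 with red blood cell markers. These were the marker lists with the largest values, of either sign. The other epithelial lists gave 0.23 (goblet) and -0.14 (crypt progenitor), and monocyte and neutrophil markers gave -0.26 and -0.56. The remaining lists lay between -0.55 (T cell) and -0.17 (smooth muscle). The genes most like this mean profile were Ywhah (0.95), Sri (0.94), Dpy30 (0.93), Commd3 (0.93) and Mrpl21 (0.92), of 15106 genes compared over the 17 libraries. All of these values are descriptions across libraries that share group structure, scaling and cell content.

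For 2 members with a tested neighbour starting close by on the opposite strand, the values of both genes can be set side by side. Ndufaf7 starts 70 bp from Cebpz, which rose in wild-type PP minus NN by 2.60 (SE 0.58; edgeR adjusted p = 0.0061), where Ndufaf7 had -0.91. Ndufaf2 starts 108 bp from Ercc8, a DNA repair gene with -0.29 (SE 0.61) in that comparison against -0.96 for Ndufaf2, and neither passed the test.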

How the data were processed

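Each condition has its own table of whole-number raw counts, as the authors deposited it. Per the submitters' processing notes, CASAVA 1.8.2, FastQC, Trim Galore, STAR 2.5.4 and DESeq2 were used with the mm10 build. The counter, annotation and strand setting are not given in the sources used here. Symbols came from RefSeq GRCm38.p6 for 25262 gene numbers and GENCODE M21 for 31, and 1886 numbers, with 1.39 to 7.32% of a library's counts, had none.

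Low counts were filtered with filterByExpr. TMM-scaled counts were tested with edgeR 4.0.16 (quasi-likelihood, R 4.3.3), with Benjamini-Hochberg adjustment over all genes, and calls needed an adjusted p under 0.05. KO was compared with WT inside each table, and other contrasts used 1 fit of all 17 libraries. Log2 CPM for correlations had a prior count of 2. Alternatives were DESeq2 1.42.0, RLE factors, nuclear counts only, no filter, other libraries in the fit, leaving out each library, and the titles' mouse number as a block. P-values measure the spread between libraries, each with 1 mouse number, around their group means. That spread is estimated over all groups in a fit. All 10 members are named; from other lists at most the 3 genes with the smallest p in a comparison, and the 5 genes most like the members' mean profile. Members and lists were chosen with earlier results of these data known.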

Additional observations from a re-analysis of the deposited data

How the results depend on the processing

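The call of Timmdc1 in wild-type PP minus NN held in 11 of 12 alternatives, with log2 fold changes from -1.45 to -1.03, and that of Ndufaf3 in 9 of 12, from -1.73 to -0.70. The number of assembly factors called there was 2. It was 4 with DESeq2 and 0 when the fit held the 2 compared groups only. Leaving out single libraries gave 1 to 4 (1 without WT NN library 2, 4 without WT NN library 3). Of all genes tested, 3409 of 16958 were called by edgeR, 4657 of 16473 by DESeq2 and 1612 of 13739 with the 2 groups only. Without WT NN library 2, 1832 genes were called higher and 951 lower, and without WT NN library 3 these were 2443 and 1197. DESeq2 called 1 where edgeR called 0 in PP minus NP of KO mice (Timmdc1), in PP minus NN of KO mice (Nubpl) and in the MCJ effect averaged over conditions (Timmdc1). Over all genes DESeq2 called 1008, 2858 and 581 in these comparisons, in that order, where edgeR called 294, 1746 and 1. Leaving out single KO PP libraries gave 0 to 1 members in PP minus NN of KO mice. The cause of these differences was not tested. Of the 52 member values with an unadjusted p under 0.2, none changed sign in any alternative, and of all 1710 alternative values 73 did, each for a value with an unadjusted p of at least 0.205. RLE factors moved the median of all genes in PP minus NN of KO mice from 0.06 to 0.16, and the median of the members from -0.89 to -0.79. The alternatives without WT NN library 2 and WT PP library 11 together, and with a replicate block, were chosen after seeing the data. Mouse numbers in the titles repeat between groups: KO NN shares 2 numbers with WT NN and 2 with KO NP, and each other pair of compared groups shares at most 1. No label says that a number marks a shared animal, litter or day. Deviations of same-numbered libraries from their group means had correlations of -0.087 and -0.092 (KO and WT in NN) and of 0.0091 and 0.020 (KO NP and NN) across genes. The deviations of the 2 KO NN libraries mirror each other by construction, so these values cannot decide whether same-numbered libraries share more than a number. With that number as a replicate block edgeR called 0 of 10 in both comparisons, as without it, and Timmdc1 in NN was -1.10 (edgeR adjusted p = 0.87). Groups of 2 or 3 libraries and low counts of Nubpl and Tmem126b, 59 to 431 per library, limit the precision.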
